A study of Mus musculus with 28 samples.

Results

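The genes described here encode the canonical, replication-dependent histones and their linker histone partners. They were chosen by name: every mouse gene whose current RefSeq symbol begins with H1f and a digit, H2ac, H2bc, H3c or H4c (the older Hist1 to Hist4 names), pseudogenes left out, with at least 10 counts in at least 2 libraries. The rule was met by 51 of the 24116 genes counted: 8 H1, 12 H2A, 14 H2B, 7 H3 and 10 H4 genes. A further 11 matching genes had a row but stayed under the minimum, and 5 had no row. RNA was sequenced from RGd2 cells, a female mouse embryonic stem cell line that carries a reporter of Rex1. In every group the starting culture was kept in 2i, a medium with inhibitors of Gsk3 and Mek, and either harvested in it (ESC) or harvested 16 h or 32 h after the inhibitors were taken away. Libraries from rRNA-depleted total RNA (ScriptSeq; ribo-depleted from here on) came from the Zfp281 knockout (KO) and WT cells at all 3 stages. Libraries from a TruSeq mRNA kit (polyA from here on) covered ESC and 32 h, in cells labelled as knocked out for Ehmt1 (Ehmt1 KO), for Zic2 (Zic2 KO) or for both genes (double KO), and in WT cells. There were 14 groups with 2 libraries apiece, from 2 KO clones, or from 2 WT lines that were different lines in the 2 kinds of library.

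Most histone protein is made in S phase, when new DNA is packed, and mRNAs of the clustered genes are made then and destroyed at its end. These mRNAs are the known exception among animal mRNAs in having no poly(A) tail: they end just after a short stem-loop, which Slbp binds and which the U7 snRNP helps to cut. A few histone genes depart from this. H1f0 and H1f10 stand alone in the genome, away from the clusters, and give polyadenylated mRNA outside S phase, as replacement variants such as H3f3b do, and some clustered genes can give both kinds of mRNA.

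The name clustered fitted 49 of the 51. On chromosome 13 the table of RefSeq genes (GRCm38.p6) placed 43 members between 21715711 and 23934913, and on chromosome 3 it placed 6 between 96219885 and 96270192. H1f0 lay alone on chromosome 15 (79028212 to 79030504) and H1f10 alone on chromosome 6 (87980421 to 87981482). Almost all of these genes are short and have 1 exon. Only H2bc4, H2bc6 and H2bc22 had an intron in GENCODE vM21.

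The stem-loop is shown first, since it marks the mRNAs that end without a tail. The search took runs of 16 letters that read GG, any 2 letters, CTT, any letter, T, any letter, AG, any letter, G, any letter and C, within 600 bases after the stop codon in the GENCODE transcripts and on the strand of the gene. They were found in 29 of the 37 members whose models hold at least 16 such bases (78.4%), against 55 of 20965 protein-coding genes (0.262%). The other 14 members, H2bc18 among them, could not be searched. Of the 29, 16 had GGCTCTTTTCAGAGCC, and 6 other spellings made up the rest. A shared spelling ran across types, as in H1f3 and H2ac4, while the 7 H4 genes with a match all had spellings that open with GGCC. In the lines that follow, capitals mark the match, and the bases are those of the transcript, 5′ to 3′, with T for U.
H1f3 (chr13:23555787-23555802, plus strand): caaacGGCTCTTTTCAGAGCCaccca
H2ac4 (chr13:23751572-23751587, plus strand): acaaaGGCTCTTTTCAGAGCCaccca
H1f6 (chr13:23696525-23696540, plus strand): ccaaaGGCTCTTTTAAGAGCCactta
H2bc3 (chr13:23747203-23747218, plus strand): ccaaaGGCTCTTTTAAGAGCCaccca
H3c8 (chr13:23535889-23535904, plus strand): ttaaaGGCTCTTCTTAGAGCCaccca
H4c8 (chr13:23531458-23531473, plus strand): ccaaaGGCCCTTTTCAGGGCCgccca

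In 8 of the 37 no full match was found. For H1f1 the model ended after 15 of the 16 letters. The other 7 were H1f0, H1f10, H2bc4, H2bc21, H3c13, H4c2 and H4c11; H3c13 had only 37 bases to search. The polyadenylation signal AATAAA stood in the last 60 bases of a model in 10 of 35 members (28.6%), against 68.9% of protein-coding genes. The 10 were H1f0, H1f10, H2bc21, H1f2, H1f6, H2ac8, H2bc22, H4c1, H4c11 and H4c14. H2bc4 was searched and had none.

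Promoters showed the letters for which this family is known. In the 250 bases upstream of the RefSeq start, CCAAT, the box that NF-Y binds, stood on either strand in 38 of 46 members with an entry (82.6%), against 37.5% of all genes. It stood in all 12 H2A, all 12 H2B and all 5 H3 promoters searched, in 6 of 8 H1 promoters and in 3 of 9 H4 promoters. TATAAA was present in 52.2% of members and 14.3% of all genes. The octamer ATTTGCAT, which Oct factors bind, was present in 28.3% of members and 1.81% of all genes. It was found in 6 of 12 H2A and 7 of 12 H2B promoters, and in none of the H1, H3 or H4 promoters searched. In the promoters printed here no 2 matches overlap. A match describes the letters and does not show that a factor binds.

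A few promoters are printed because their genes carry the results: H2ac1, which shares its upstream region with H2bc1 (the pair starts 280 bases apart, on opposite strands), H2bc18, the most abundant member, and H1f0, which held none of the motifs. Capitals mark these motifs on either strand. Coordinates are GRCm38.p6, plus strand.
H2ac1 (chr13:23934187-23934436): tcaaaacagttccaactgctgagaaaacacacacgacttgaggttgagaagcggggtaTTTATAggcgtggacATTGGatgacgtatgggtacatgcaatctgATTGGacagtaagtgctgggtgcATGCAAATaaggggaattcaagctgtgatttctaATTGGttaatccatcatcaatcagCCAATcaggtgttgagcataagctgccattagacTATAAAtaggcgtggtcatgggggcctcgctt
H2bc18 (chr3:96269450-96269699): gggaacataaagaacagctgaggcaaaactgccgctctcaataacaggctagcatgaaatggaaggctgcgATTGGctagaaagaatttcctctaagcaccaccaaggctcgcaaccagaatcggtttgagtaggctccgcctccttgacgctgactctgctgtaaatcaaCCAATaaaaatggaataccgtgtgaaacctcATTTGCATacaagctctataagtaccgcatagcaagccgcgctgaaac
H1f0 (chr15:79027962-79028211): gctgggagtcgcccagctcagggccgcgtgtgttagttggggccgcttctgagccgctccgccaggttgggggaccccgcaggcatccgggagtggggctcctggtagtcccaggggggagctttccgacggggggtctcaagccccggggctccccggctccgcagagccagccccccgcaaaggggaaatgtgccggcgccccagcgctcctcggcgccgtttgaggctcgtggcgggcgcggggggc
The H2ac1 region held 4 CCAAT, 2 TATAAA and 1 octamer, and the H2bc18 region 2 CCAAT and 1 octamer.

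The 12 ribo-depleted libraries held 18086421 to 36365192 counts in all, and the 16 polyA libraries 19013882 to 28777604. The WT line named Zfp281_WT stood apart at ESC and 32 h: 89.0% and 87.0% of olfactory receptor genes, which these cells should not use, had a count there, against 11.3% to 24.8% where Zfp281 KO clones or the WT line were sequenced by that kit, and 8.94% in Zfp281_WT itself at 16 h. Counts of calls that rest on WT cells of these stages are therefore also given without that line, while levels are given for each line and folds between the kinds of library use both. Leaving it out leaves 1 WT library per stage, which is then assumed to vary as the Zfp281 KO clones did. Those clones differed less than the WT lines: the chi-square per degree of freedom between the libraries of a group was 3.42 at ESC and 4.07 at 32 h for KO clones, against 25.2 and 12.5 for WT lines. Counts without Zfp281_WT are therefore no test against the spread of WT cells. The 10 stem cell markers all had counts in every library, summing to 2537 to 4860 CPM (counts scaled to library size) in ribo-depleted and 3071 to 5177 CPM in polyA libraries, and the 8 fibroblast markers summed to at most 27.1 CPM. Ehmt1 fell in the Ehmt1 KO (log2 fold change at 32 h -2.49 ± 0.17 SE) and in the double KO (-2.35 ± 0.17), while Zfp281 was not lower in the libraries labelled Zfp281 KO (0.19 ± 0.11 at 32 h) nor Zic2 in those labelled Zic2 KO (0.41 ± 0.39) or double KO (-0.02 ± 0.39), and the labels do not say which part of those genes was altered. Members of one type are near copies, and how reads that fit several copies were counted is not given in the sources used here. The share of a gene's 50-base stretches found at no other locus had a median of 100% for H1, 44.8% for H2A, 58.1% for H2B, 39.6% for H3 and 65.8% for H4 genes. Single-gene values of the 4 core types are uncertain for that reason, and sums per type are given beside them. A sum is spared where reads were split among copies of its type, but is too low where such reads were dropped.

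Canonical histone transcripts were plentiful in ribo-depleted libraries and nearly missing from polyA libraries. Members took 0.340% to 0.574% of all counts in the ribo-depleted libraries and 0.00420% to 0.0134% in the polyA libraries. In WT cells at ESC they summed to 4476 and 3643 CPM in the ribo-depleted libraries, against 59.99 and 60.7 CPM in the polyA libraries, a fold of 67.3. At 32 h the sums were 5897 and 5077 CPM against 42.6 and 58.0 CPM, a fold of 109. H1f0 and H1f10 made up 92.6% of all member counts in the polyA libraries. Without those 2 the fold was 844 at ESC and 776 at 32 h. The kinds of library also differed in WT line and in experiment, and these cannot be told apart, so the folds are descriptions with no test.

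**Figure D1:**
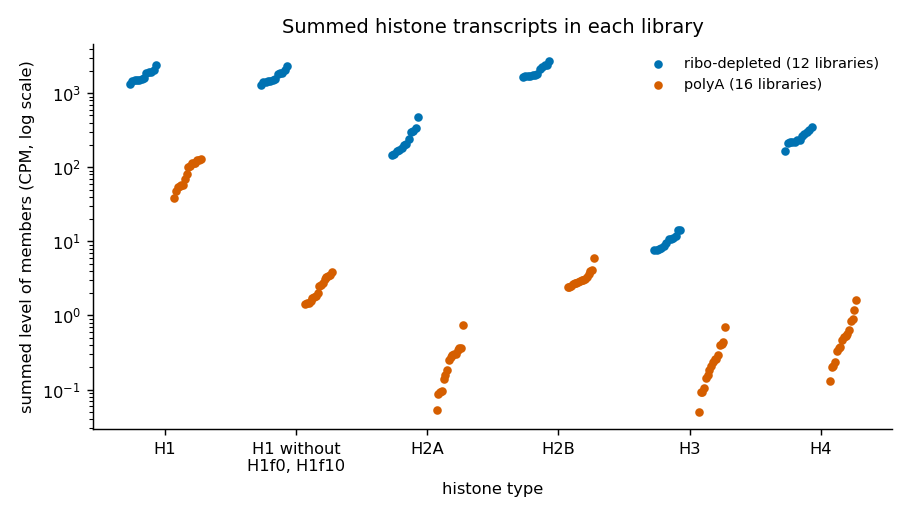
Summed level of the clustered histone genes of each type (CPM, log axis) in each library, with the 12 ribo-depleted libraries left of the 16 polyA libraries, each point 1 library. For H2A the ribo-depleted points run from 148 to 477 CPM and the polyA points from 0.0528 to 0.737 CPM. For H1 they run from 1329 to 2384 CPM and from 39.0 to 129 CPM. Without H1f0 and H1f10 the polyA points of H1 run from 1.43 to 3.81 CPM.

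The gap held for each type. At ESC the fold of the summed WT level was 976 for H2A, 712 for H2B, 95.0 for H3 and 810 for H4. At 32 h it was 2429 for H2A, 852 for H2B, 32.1 for H3 and 653 for H4. For H1 it was 29.4 at ESC and 48.2 at 32 h, and across all libraries the H1 sum without H1f0 and H1f10 ran from 1275 to 2323 CPM in ribo-depleted and from 1.43 to 3.81 CPM in polyA libraries. The H3 sums were low in both kinds of library, 7.65 to 14.3 CPM in ribo-depleted and 0.0501 to 0.696 CPM in polyA, and the polyA sums of H2A, H3 and H4 rest on few counts.

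The split was seen gene by gene. Of 10253 genes with at least 5 CPM in ribo-depleted WT ESC, 54 (0.527%) were at least 50-fold higher there than in polyA, and 23 of the 25 members at that level were among the 54. The median fold was 0.90 over all 10253 genes and 925 over those 25 members, with 7 members that had no polyA count set at the lower limit that 3 counts over both libraries allow. At 32 h it was 30 of 32 members, among 67 of 10460 genes (0.641%). The 2 members that missed the limit at ESC were H1f0 and H2bc4. All 7 noncoding RNAs known to lack a tail that were at that level passed the same limit. The 5 with a polyA count were 293-fold (Terc, on 1 polyA count) to 3856-fold (Rmrp) higher in ribo-depleted libraries, and Rnu12 and Rnu11, which had none, were at least 112-fold and at least 123-fold higher. Replacement variant genes lay at 0.47-fold to 1.38-fold, with H3f3b at 1.00.

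H2bc18, an H2B gene of the chromosome 3 cluster, had 55110 and 23523 counts in the ribo-depleted WT ESC libraries, against 3 and 4 counts in the polyA ones. Its level was 1388 CPM against 0.171 CPM, an 8130-fold difference (95% counting interval 3946 to 20220; such intervals cover counting error only). A noncoding gene on the same strand overlaps H2bc18 in GENCODE, and reads of the overlap cannot be told apart. H1f1, a linker histone of dividing cells, had 32578 and 14200 counts against 13 and 10 counts, a fold of 1472 (981 to 2322). H2bc3, another H2B gene, was 4680-fold higher (1601 to 22700) on 3 polyA counts. Over all 16 polyA libraries, 24 of the 51 members had 10 counts or fewer in total and 7 had none.

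Small gaps or none were seen in H1f0, H1f10, H2bc21 and H2bc4, which have no stem-loop match. H1f0 was at 46.3 CPM in ribo-depleted and 46.1 CPM in polyA WT ESC libraries, a fold of 1.01 (0.948 to 1.07). H1f10 was at 3.55 CPM in ribo-depleted and 9.54 CPM in polyA libraries, a fold of 0.37 (0.312 to 0.442), so it was the 1 member higher in polyA beyond its counting interval. H2bc21, on chromosome 3, was even at 0.494 and 0.488 CPM, on 28 and 20 counts. H2bc4 was in between, at 23.2 CPM in ribo-depleted and 1.78 CPM in polyA, a fold of 13.05 (10.3 to 16.8). The missing match did not mark all low folds or only those: H4c2 had no match and was 2883-fold higher (517 to 113900) on 1 polyA count, and H2ac11 had one and was 4.83-fold higher (1.43 to 25.4) on 3. AATAAA did not mark all low folds or only those either. H2bc4 lacked it, while H1f2 had it and was 508.5-fold higher (342 to 794). H4c14 had it too and was 2045-fold higher (367 to 80790) on 1 polyA count. The genes named here were singled out after their values had been seen.

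**Figure D2:**
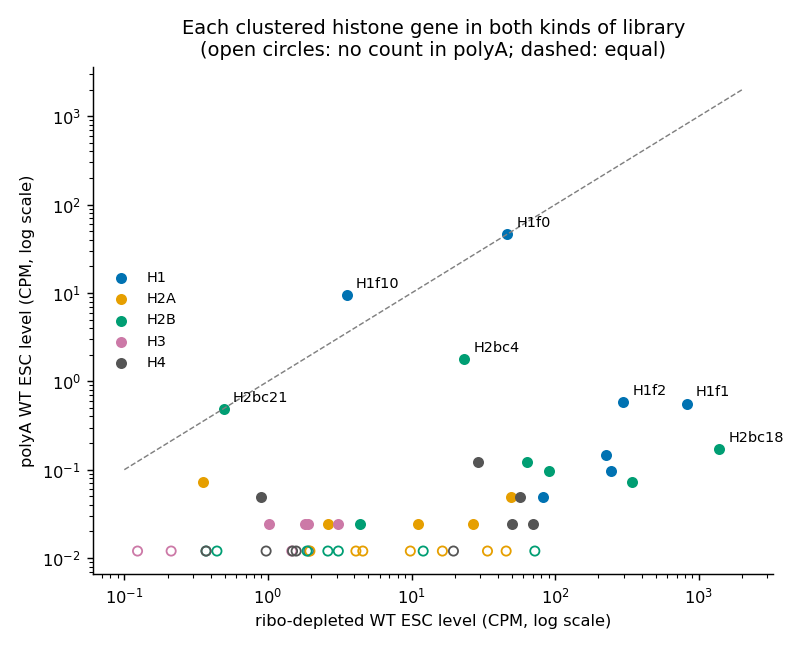
Level of each of the 51 clustered histone genes in ribo-depleted (x) and polyA (y) WT ESC libraries, in CPM on log axes, coloured by type; open circles had no polyA count and are drawn at a fixed height. H1f0 and H2bc21 lie on the dashed line of equal levels, H1f10 above it, H2bc4 below it, and the abundant genes such as H2bc18 and H1f1 far below it.

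A few genes carried most of the ribo-depleted signal. In WT ESC libraries H2bc18 took 33.2% of member counts and H1f1 19.7%, and with H2bc3 and H1f2 they came to 68.3%. Per kilobase of gene, H2bc18 led at 2717 CPM per kb, followed by H1f1 at 1073, H2bc3 at 706 and H1f2 at 400 CPM per kb. The lead of H2bc18 exceeded the spread between the 2 WT lines (3055 and 2378 CPM per kb, against 1195 and 950 for H1f1). The top H4 gene, H4c2, was at 142 CPM per kb, but its lines differed (191 and 92.8), so its place next to H4c8 (125 CPM per kb) is within their spread. Summed per kilobase over the 48 genes with no intron, H2B came to 3744, H1 to 2187, H4 to 518, H2A to 389 and H3 to 17.2 CPM per kb. The median gene was ordered otherwise: 189 for H1, 26.5 for H4, 19.3 for H2A, 7.12 for H2B and 1.92 CPM per kb for H3. Both orders of types are uncertain, since dropped reads of near copies would lower sums as well as single genes. The median share of unique 50-base stretches was 39.6% for H3 and 100% for H1 genes. Across these 48 genes the level per kb had a Spearman rho of 0.32 with the share of unique 50-base stretches, a description, since all points share the same libraries.

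In WT cells at 32 h, 15 of the 51 members were higher than at ESC in ribo-depleted libraries and none was lower (adjusted p under 0.05 over 18971 genes). Of all genes tested 25.9% were called, 15% as higher and 11% as lower, against 29.4% of members, all higher. Higher calls made up 57.7% of all calls, but 48.8% with DESeq2 size factors. The median log2 fold change was 0.50 over members, 46 of them positive, and 0.02 over all genes. The summed level averaged 5487 ± 580 CPM at 32 h and 4060 ± 589 CPM at ESC (SD, n = 2 each), and it was 1.32 times as high at 32 h in the WT line and 1.39 times in Zfp281_WT. At 16 h, in a table deposited and scaled apart, it was 3504 ± 138 CPM. The count was 21 without Zfp281_WT (1 WT library per stage) and 26 with the line as a block, all higher, but 5 when only the 4 WT libraries were fitted; it was 26 without WT ESC replicate 1.

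In a bulk sample, more cells in S phase and more histone RNA per cell cannot be told apart. Of 32 S phase genes 6 rose and 2 fell in the same comparison, with a median log2 fold change of 0.16; Ccne1, the cyclin of S phase entry, rose by 1.36 ± 0.15 and Cdk2, its kinase, fell by 0.34 (SE 0.08). Of 14 mitotic genes 8 rose and none fell, with a median of 0.30. Their part in the histone result was not tested.

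The largest changes belonged to 3 genes known for testis. H1f6, the linker histone of spermatocytes, had 15.3 and 13.8 CPM at 32 h, against 2.02 and 1.74 CPM at ESC, a log2 fold change of 2.93 ± 0.14 SE (adjusted p = 1.49e-06). H2ac1 and H2bc1 are the divergent pair of testis-type H2A and H2B genes whose shared promoter is printed above. H2ac1 had 196 and 150 CPM at 32 h, against 32.5 and 16.0 CPM at ESC, a log2 fold change of 2.81 ± 0.31 (adjusted p = 0.000713). H2bc1 had 13.7 and 11.7 CPM at 32 h, against 2.30 and 1.10 CPM at ESC, a log2 fold change of 2.83 ± 0.26 (adjusted p = 6.18e-05). In each of the 3 the libraries of the stages lay far apart. H1f6 kept its rise at 2.76 to 3.05 over 11 alternatives, H2ac1 at 2.33 to 3.43 and H2bc1 at 2.38 to 3.52, and each stayed called in all of them.

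The other rises were smaller. H2bc21 rose by 1.80 ± 0.46, with 1.77 and 2.04 CPM at 32 h against 0.328 and 0.798 CPM at ESC. H2ac10 rose by 1.28 ± 0.21. H1f4, H1f1 and H1f3, linker histones of dividing cells, rose by 0.65 ± 0.11, 0.50 ± 0.11 and 0.48 ± 0.09. The remaining 7 called genes rose by 0.34 (H4c4) to 0.94 (H2bc9). Among H2B genes 5 of 14 rose, among H1 4 of 8, among H2A 3 of 12 and among H4 3 of 10, while no H3 gene was called, with a median of 0.63 over 7 genes of few counts. H2bc18 had 1884 and 1629 CPM at 32 h, against 1506 and 1172 CPM at ESC, and its log2 fold change of 0.39 ± 0.13 missed the threshold (adjusted p = 0.0502). H1f0 and H1f2 gave 0.03 ± 0.22 and 0.03 ± 0.10, which did not pass the test.

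**Figure D3:**
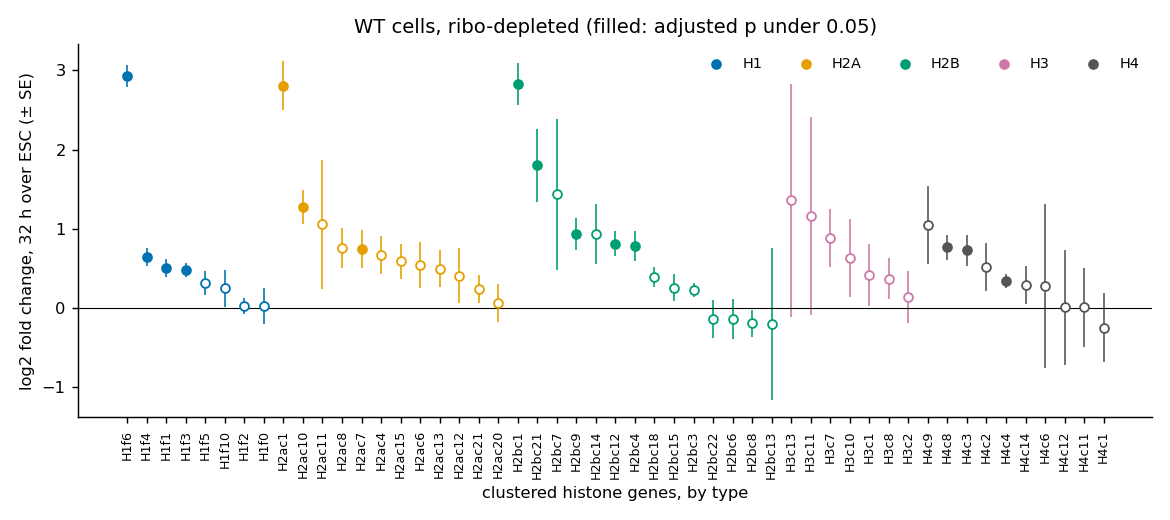
Log2 fold change, 32 h over ESC, of each clustered histone gene in ribo-depleted WT libraries (2 libraries per stage), ordered within type; bars are SE and filled points have an adjusted p under 0.05. H1f6, H2ac1 and H2bc1 stand near 3 on the log2 scale, and most others lie between 0 and 1.

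Neighbours on opposite strands are given side by side, with no test of the difference within a pair. Of 6 H2A/H2B pairs whose starts lie within 500 bases, 4 had the same sign in both genes. In the H2ac12/H2bc12 pair H2bc12 rose by 0.81 ± 0.16, and H2ac12 gave 0.41 ± 0.35 and was not called. In the H2ac8/H2bc8 pair the values were 0.76 ± 0.25 for H2ac8 (adjusted p = 0.0533) and -0.19 ± 0.17 for H2bc8, neither called. Reads shared with other copies can touch both genes of such pairs.

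Genes that serve the making and decay of histone mRNA were listed beside the members. Of 30 genes of this processing and transcription list 7 rose and 1 fell, where 25.9% of all genes were called, with a median log2 fold change of 0.05. Nfyb, an NF-Y subunit, rose by 0.61 ± 0.08, and Tut4, a uridylyl transferase that acts on histone mRNA in decay, by 0.45 ± 0.09. Of 12 histone chaperones 3 rose and 2 fell: Nasp, which carries H3 and H4, rose by 0.48 ± 0.09 and Asf1b fell by 0.35 (SE 0.10). Of 11 replacement variants 4 rose and 1 fell; Macroh2a1 fell by 1.83 (SE 0.11), H2aj rose by 0.63 ± 0.13 and H3f3b by 0.44 ± 0.10. This list holds H1f0 and H1f10 too.

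In polyA libraries of WT cells 6 members could be tested (H1f0, H1f10, H1f1, H1f2, H2bc4 and H2bc21), and 35.7% of the 15667 genes tested were called between the stages, 17.9% as higher and 17.8% as lower. H1f1 rose by 1.65 ± 0.39 (adjusted p = 0.00518), on low counts, 36 and 47 at 32 h against 13 and 10 at ESC. H1f0 fell by 0.40 (SE 0.14), with 31.3 and 38.7 CPM at 32 h against 44.1 and 48.1 CPM at ESC, and the groups did not overlap. That call was lost under 5 of 10 alternatives, where the adjusted p reached 0.317. H2bc21 and H2bc4 were not called. The other 45 members passed no filter on low counts in polyA and were not tested there.

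In the libraries labelled Zfp281 KO, the count of members called at ESC differed with the WT library left out. With both lines 1 of 51 members was called, H2bc8, which fell by 0.72 (SE 0.17, adjusted p = 0.024), against 13.8% of all genes (8.50% higher and 5.30% lower). Higher calls were 61.6% of all calls, and 53.2% with DESeq2 size factors. At an unadjusted p under 0.05 there were 6 members. H2bc8 had 8.36 and 6.56 CPM in KO cells, against 11.2 and 13.6 CPM in WT cells, and its call was lost under 2 of 10 alternatives (adjusted p up to 0.257). Without Zfp281_WT, with 1 WT library left per stage, 1 member was higher and 18 were lower. Without WT ESC replicate 1, the other WT library, 13 were higher and 2 lower, and without Zfp281_WT at ESC alone 1 was higher and 9 lower. The summed level was 3766 and 3788 CPM in the KO clones, and 4476 and 3643 CPM in the WT lines, so the KO values lay between those of the WT lines. Without either KO clone no member was called.

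At 16 h, fitted on its own 4 libraries, 7 of 48 tested members were higher and 4 lower in Zfp281 KO cells, where 28.6% of 15139 genes were called, 15.3% as higher and 13.3% as lower. The median log2 fold change was 0.05, against -0.01 over all genes, and the summed levels were close, at 3570 and 3559 CPM in KO cells and 3407 and 3602 CPM in WT cells. H2bc4 rose by 0.73 ± 0.14 (adjusted p = 0.00583), with 24.5 and 32.3 CPM in KO cells against 17.4 and 16.8 CPM in WT cells. H1f0 rose by 0.48 ± 0.15, H1f2 by 0.39 ± 0.09 and H2bc21 by 0.89 ± 0.27. H2bc1 fell by 0.84 (SE 0.20), with 2.66 and 3.28 CPM in KO cells against 5.02 and 5.64 CPM in WT cells, while H4c12 fell by 1.64 (SE 0.36) on 11 and 10 counts against 34 and 42. Over 8 alternatives the call was lost under 4 for H2bc21 (adjusted p up to 0.233), 2 for H4c12 and 1 each for H2bc4, H1f2 and H2bc1. The count of 11 members ran from 2 without Zfp281 KO 16h replicate 1 and 4 without replicate 2 to 21 without WT 16h replicate 1. Of 12 histone chaperones 7 fell and none rose at this stage, and of 32 S phase genes 2 rose and 7 fell. The formative markers, 4 genes of cells that have left the naive state, summed to 298 to 326 CPM in KO and 745 to 774 CPM in WT cells; their part was not tested.

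At 32 h 5 of 51 members were lower in Zfp281 KO cells and none was higher, against 28.5% of all genes called (16.6% as higher and 11.9% as lower). The share of members, 9.80%, lay below the share of all genes. H2bc1 fell by 1.23 (SE 0.24, adjusted p = 0.00424), with 5.89 and 4.95 CPM in KO cells against 13.7 and 11.7 CPM in WT cells. H1f6 fell by 0.57 (SE 0.12), with 9.94 and 9.60 CPM in KO cells against 15.3 and 13.8 CPM in WT cells. H2ac1 had 91.4 and 93.2 CPM in KO cells against 196 and 150 CPM in WT cells, and its log2 fold change of -0.91 missed the threshold (adjusted p = 0.0567). H1f4 fell by 0.59 (SE 0.11), H2bc22 by 0.85 (SE 0.25) and H2bc3 by 0.31 (SE 0.09). Over 10 alternatives the call of H2bc22 was lost under 5 (adjusted p up to 0.174), that of H2bc3 under 4 (up to 0.261), that of H1f6 under 3 (up to 0.0912), and those of H1f4 and H2bc1 under 1 each (up to 0.06 and 0.0594). H2bc18, the most abundant member, had 1602 and 1786 CPM in KO cells against 1884 and 1629 CPM in WT cells and was not called. In all 3 testis-type genes the KO libraries lay below both WT libraries. These genes were grouped for their rise in the same WT 32 h libraries, so this is a description and adds nothing to the single calls. The summed level was 4780 and 4960 CPM in KO clones, against 5897 and 5077 CPM in WT lines.

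Without Zfp281_WT, with 1 WT library left per stage, 24 members were called at 32 h, all lower, and with only the 4 libraries of this comparison 12 were called, all lower. The count was 2 without Zfp281 KO 32h replicate 1 and 1 without replicate 2. Without WT 32h replicate 1, 1 member was higher and 3 were lower. The formative markers moved with this result too: they summed to 628 to 680 CPM in KO and 1357 to 1457 CPM in WT cells at 32 h, and to 137 to 139 CPM in KO and 184 to 226 CPM in WT cells at ESC. Of the 10 stem cell markers 5 were higher and 2 lower in KO cells at 32 h, with a median log2 fold change of 1.01 and sums of 2858 to 3041 CPM in KO and 2537 to 3019 CPM in WT cells. The 5 trophoblast markers summed to 18.6 to 18.9 CPM in KO and 7.57 to 9.31 CPM in WT cells at 32 h, and to 32.0 to 33.1 CPM in KO and 14.2 to 15.4 CPM in WT cells at ESC. Of 32 S phase genes 8 were higher and 3 lower in KO cells at 32 h, where 28.5% of all genes were called. Their sums were 7992 to 8056 CPM in KO and 6770 to 7563 CPM in WT cells. Of 14 mitotic genes 5 were higher and none lower, and of 12 histone chaperones none was higher and 2 were lower. The part of these markers and lists in the result was not tested.

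**Figure D4:**
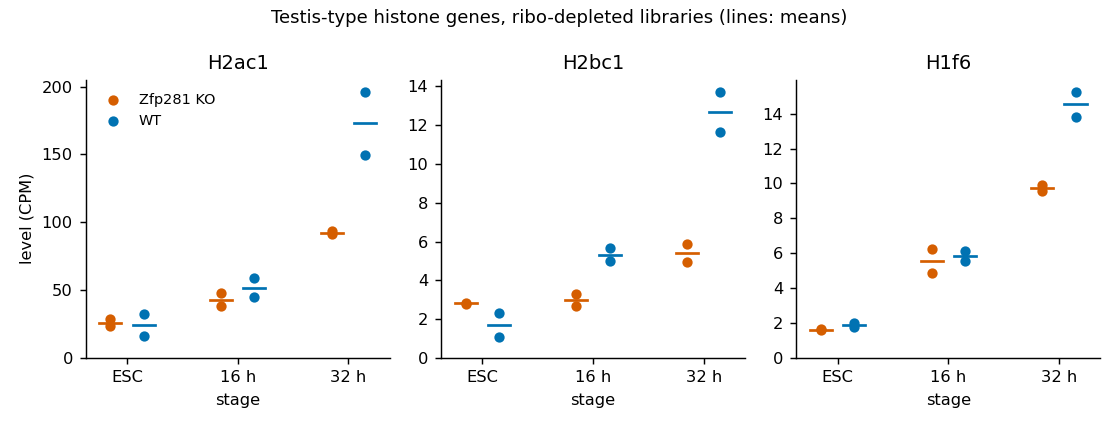
Levels of H2ac1, H2bc1 and H1f6 (CPM) in each ribo-depleted library by stage, Zfp281 KO clones left of WT lines, with short lines at the means; the 16 h libraries were scaled in a separate fit. All 3 genes are highest at 32 h, and at 32 h the KO points lie below the WT points. The genes were chosen for their rise in these WT libraries.

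The response to 2i withdrawal differed by genotype in 1 of 51 members, H2bc1, whose log2 change from ESC to 32 h was smaller by 1.88 (SE 0.36, adjusted p = 0.0225) in KO cells; 4.15% of all genes were called, with 1.95% above and 2.20% below the WT response. At 32 h H2bc1 had 5.89 and 4.95 CPM in KO cells, against 13.7 and 11.7 CPM in WT cells. At the ESC stage it had 2.84 and 2.79 CPM in KO cells, against 2.30 and 1.10 CPM in WT cells. Without Zfp281_WT (1 WT library per stage) the difference was -1.60 and 5 members were called, all lower. The call was lost without any 1 of the 4 KO libraries, and 8 members were called without WT ESC replicate 1.

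The genotypes of the polyA libraries can be compared for 6 members, of which H1f0 and H1f10 have most of the counts. The Ehmt1 KO, double KO and Zic2 KO comparisons share their WT libraries, so they are not independent of each other. H1f0 is the linker histone that gathers in cells that stop dividing or differentiate, and H1f10 is a diverged linker histone. Ehmt1 is a methyltransferase of histone H3 lysine 9, and Zic2 a zinc finger transcription factor.

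H1f0 was higher in the Ehmt1 KO and in the double KO. At ESC it had 98.0 and 99.5 CPM in Ehmt1 KO clones, against 44.1 and 48.1 CPM in WT lines, a log2 fold change of 1.10 ± 0.14 (adjusted p = 0.000114). At 32 h it had 95.0 and 89.2 CPM in KO clones, against 31.3 and 38.7 CPM in WT lines, a log2 fold change of 1.40 ± 0.14 (adjusted p = 2.45e-05). Every KO value was more than any WT value, and both calls stayed in all 9 alternatives (1.04 to 1.19 at ESC and 1.25 to 1.56 at 32 h). In double KO clones it had 73.3 and 78.5 CPM at ESC (0.72 ± 0.14 against WT, adjusted p = 0.0017) and 76.4 and 71.6 CPM at 32 h (1.08 ± 0.14, adjusted p = 0.00011), and these calls stayed too. The values of the double KO lay between those of the Ehmt1 KO and WT at both stages.

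H1f10 was higher as well, with wider spread. At ESC it had 29.1 and 25.9 CPM in Ehmt1 KO clones, against 11.2 and 7.81 CPM in WT lines (1.53 ± 0.45, adjusted p = 0.0239). At 32 h it had 17.9 and 31.6 CPM against 5.13 and 11.4 CPM (1.58 ± 0.45, adjusted p = 0.0206). The groups did not overlap, but each of these calls was lost under 4 of 9 alternatives, with an adjusted p of up to 0.129 at ESC and 0.175 at 32 h. In double KO clones it had 26.1 and 23.4 CPM at ESC (1.38 ± 0.45, a call lost under 5 of 9 alternatives) and 34.9 and 37.8 CPM at 32 h (2.13 ± 0.45, adjusted p = 0.00285, kept in all 9).

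Markers of other cells stood beside these results. The fibroblast markers summed to 16.7 to 18.7 CPM in the Ehmt1 KO, 16.8 to 22.3 CPM in the double KO and 6.47 to 7.26 CPM in WT cells at ESC. At 32 h they summed to 16.4 to 27.1 CPM in the Ehmt1 KO, 13.7 to 23.4 CPM in the double KO and 13.1 to 16.5 CPM in WT cells. The 5 primitive endoderm markers summed to 1.79 to 2.29 CPM in the Ehmt1 KO, 1.47 to 2.68 CPM in the double KO and 6.81 to 8.99 CPM in WT cells at ESC. At 32 h their sums were 2.47 and 12.6 CPM in the Ehmt1 KO clones, 3.78 to 6.50 CPM in the double KO and 10.3 to 12.1 CPM in WT cells. The 5 trophoblast markers summed at ESC to 31.4 to 71.2 CPM, 22.3 to 25.0 CPM and 32.6 to 37.3 CPM in the same order. At 32 h the trophoblast sums were 9.58 to 11.3 CPM, 10.6 to 15.8 CPM and 11.6 to 12.2 CPM. Of the 10 stem cell markers 6 were higher and 1 lower in the Ehmt1 KO at 32 h (median log2 fold change 0.81), and 6 were higher and 2 lower in the double KO (1.29). The 4 formative markers summed at 32 h to 1412 to 1417 CPM in the Ehmt1 KO, 757 to 958 CPM in the double KO and 1311 to 1441 CPM in WT cells. At ESC the formative sums were 281 to 350 CPM in the Ehmt1 KO, 249 to 388 CPM in the double KO and 200 to 215 CPM in WT cells. Olfactory receptor genes with a count were 4.69% to 7.85% of all such genes in the Ehmt1 KO and double KO libraries, against 1.90% to 3.43% in WT libraries. The part of these values in the H1f0 and H1f10 results was not tested.

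**Figure D5:**
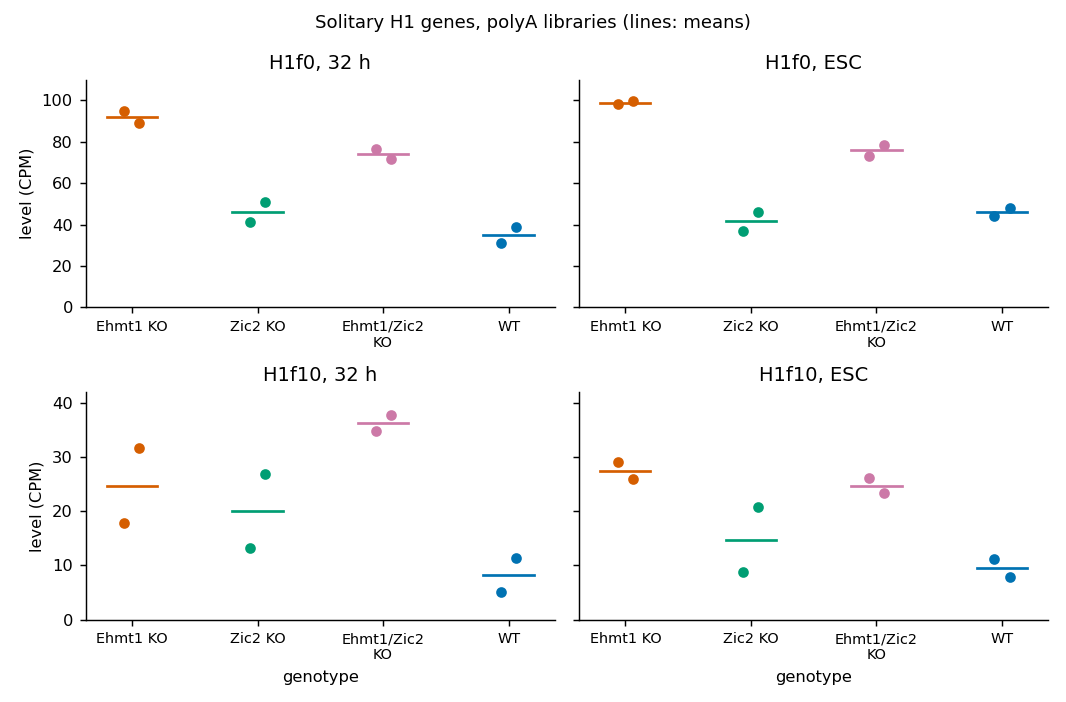
Levels of H1f0 and H1f10 (CPM) in each polyA library at 32 h and at ESC, with the clones of the 3 KO genotypes left of the WT lines and short lines at the means. H1f0 is higher in the Ehmt1 KO and double KO than in WT at both stages. The Zic2 KO points of both genes overlap the WT points at ESC and lie above them at 32 h. Neither gene was called in the Zic2 KO at either stage.

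H1f2, a clustered linker histone with a stem-loop match, was higher in double KO cells. At 32 h it had 1.15 and 1.79 CPM in double KO clones, against 0.351 and 0.581 CPM in WT lines, from 34 and 49 counts against 8 and 14. Its log2 fold change was 1.64 ± 0.39 (adjusted p = 0.00566), a call lost under 1 of 9 alternatives (adjusted p up to 0.0686). At ESC H1f2 had 1.56 and 1.07 CPM against 0.618 and 0.551 CPM (1.16 ± 0.40, adjusted p = 0.0336), from 34 and 22 counts against 13 and 11, a call lost under 6 of 9 alternatives. H2bc4 rose by 0.94 ± 0.35 in the double KO at 32 h, with 2.46 and 4.53 CPM against 2.02 and 1.62 CPM, at an adjusted p of 0.04999, and lost the call under 6 of 9 alternatives.

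In all, 2 of the 6 were called in the Ehmt1 KO at ESC and 2 at 32 h, and 3 and 4 in the double KO, all higher. Of all 15667 genes 26.9% and 26.6% were called in the Ehmt1 KO at ESC and 32 h, 14.8% and 15.1% as higher and 12.1% and 11.4% as lower. In the double KO the shares were 39.4% and 39.1%, with 20.9% and 21.4% as higher and 18.5% and 17.8% as lower. The summed polyA level of the members other than H1f0 and H1f10 averaged 6.76 ± 0.87 CPM in the Ehmt1 KO, 8.23 ± 1.51 CPM in the Zic2 KO, 9.78 ± 2.06 CPM in the double KO and 7.01 ± 1.23 CPM in WT cells at 32 h (SD, n = 2 each). Since these 6 passed the filter by their polyA counts, they do not stand for the 51. Leaving out WT ESC replicate 1 or 2, or replicate 1 of the KO, left 1 call in each genotype at ESC. At 32 h 1 call was left in the Ehmt1 KO without WT 32h replicate 1 or Ehmt1 KO 32h replicate 2, and 2 in the double KO without WT 32h replicate 1.

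In Zic2 KO clones none of the 6 passed the edgeR test at ESC or 32 h, where 0.274% (0.160% higher, 0.115% lower) and 0.0766% (0.0447% higher, 0.0319% lower) of all genes did; at an unadjusted p under 0.05 there were 0 and 2, and DESeq2 called none. H1f0 had 37.0 and 46.3 CPM in Zic2 KO clones at ESC, against 44.1 and 48.1 CPM in WT lines. Its Zic2 KO values at 32 h were 41.0 and 51.0 CPM, and its WT values 31.3 and 38.7 CPM. H1f10 differed between the clones, at 8.73 and 20.7 CPM at ESC, against 11.2 and 7.81 CPM in WT lines. At 32 h its Zic2 KO values were 13.1 and 26.9 CPM, and its WT values 5.13 and 11.4 CPM. In H1f0 and H1f10 alike the 32 h groups did not overlap, which groups of 2 libraries often give without a difference. The share of all genes with such a gap is not given, and neither gene was called. The difference between the response to 2i withdrawal and that of WT passed the edgeR test for none of the 6 in any genotype of the polyA libraries; DESeq2 called none either, and an unadjusted p under 0.05 was found for 1 member, in the Zic2 KO. For that test 1.86% of all genes were called in the Ehmt1 KO (1.21% higher, 0.651% lower), 0% in the Zic2 KO and 5.29% in the double KO (3.08% higher, 2.21% lower).

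Other lists of genes in the polyA libraries are set beside these. At 32 h 26.6% of all genes were called in the Ehmt1 KO and 39.1% in the double KO. At ESC the shares were 26.9% and 39.4%. The list of 11 replacement variants holds H1f0 and H1f10, so their calls given above are counted again among its rises at both stages. Of the 11, 4 rose and none fell in the Ehmt1 KO at 32 h, and 5 rose and none fell in the double KO. H3f3b, which encodes H3.3, rose by 0.91 ± 0.20 and 1.00 ± 0.20, and Macroh2a1 by 0.63 ± 0.17 and 0.86 ± 0.17. Of 12 histone chaperones none rose and 4 fell in the Ehmt1 KO at 32 h, and 7 fell in the double KO, where Ssrp1, a subunit of FACT, fell by 0.92 (SE 0.12) and Nasp by 0.66 (SE 0.12). Of 30 processing and transcription genes 1 rose and 3 fell in the Ehmt1 KO and 2 rose and 9 fell in the double KO at 32 h; Cstf2, a subunit of the cleavage stimulation factor, fell by 0.36 (SE 0.10) and 0.55 (SE 0.10). Of 32 S phase genes 2 rose and 1 fell in the Ehmt1 KO and 1 rose and 6 fell in the double KO at that stage. At ESC 2 S phase genes rose and 5 fell in the Ehmt1 KO, with a median log2 fold change of -0.18, and 2 rose and 9 fell in the double KO, with a median of -0.15. Of the chaperones none rose and 3 fell in the Ehmt1 KO at ESC, and none rose and 6 fell in the double KO. Of the replacement variants 3 rose and none fell in the Ehmt1 KO at ESC, and 3 rose and 1 fell in the double KO. In Zic2 KO cells none of these lists held a called gene, where 0.274% of all genes were called at ESC and 0.0766% at 32 h.

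Over the 12 ribo-depleted libraries the genes whose level was most like the summed histone level were Zfp68 (Pearson r = 0.98 of log2(CPM + 1)), Tspan5 (0.95), Map3k4 (0.95), Dusp3 (0.94) and Pfkl (0.93), out of 10426 genes compared. The 12 points share lines, stages and 2 separate scalings, so this likeness is a description.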

How the data were processed

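The values the authors deposited are unnormalised counts for 24116 Entrez IDs, in a table of ESC and 32 h libraries and another of 16 h libraries; 24061 IDs had a RefSeq symbol and 0 columns went unmapped. Per the submitters' processing notes, edgeR and GRCm38 (mm10) were used; no aligner, counter, strand or annotation is named in the sources used here. The 2 kinds of library and the 16 h table were fitted separately. The filter was filterByExpr with a minimum count of 10 and a total of 15. Libraries were scaled by TMM and genes tested with edgeR 4.0.16 (quasi-likelihood, robust; R 4.3.3), with Benjamini-Hochberg adjustment over all genes and a threshold of 0.05. Every adjusted p is from this test, SE is the fold change over the root of F, and CPM uses TMM library sizes. Members and lists were chosen with earlier results of these data known. The lines and clones were the same at both stages, so replicate numbers pair them: deviations of same-numbered libraries correlated at 0.81 in ribo-depleted WT and 0.15 in Zfp281 KO cells, and at 0.07 to 0.59 in polyA groups. Named genes were the most abundant, the extreme kit ratios and up to 6 called members per direction with the smallest adjusted p; the script was tested on simulated data. Replicates are separate lines or clones. The p-values rest on a spread per gene that all groups of a fit share, with no term for line. They therefore do not measure the spread of the compared groups alone, and libraries of the same line at ESC and 32 h count as independent. Alternatives were DESeq2 1.42.0 (size factors; Wald test), other filters, a line block, only the groups compared, no Zfp281_WT, and each replicate left out. Stem-loops were sought in GENCODE vM21 transcripts, promoters in RefSeq GRCm38.p6.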

Additional observations from a re-analysis of the deposited data

Results flagged for a closer look

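The response of H2bc1 to 2i withdrawal differed between genotypes by a test of the difference itself: its log2 change from ESC to 32 h was -1.883 (SE 0.364) in Zfp281 KO relative to WT cells in ribo-depleted libraries (edgeR, adjusted p = 0.0225). KO cells had 5.89 and 4.95 CPM at 32 h and 2.84 and 2.79 CPM at ESC, and WT cells had 13.7 and 11.7 CPM at 32 h and 2.30 and 1.10 CPM at ESC. Over 15 alternatives the difference ran from -2.67 to -1.51 and the adjusted p from 0.000266 to 0.161.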

How the results depend on the processing

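Where single genes were recomputed, each called one kept its direction under the alternatives run. Of the values beside the counts of calls, 496 kept direction and side of the threshold, 77 lost a call, 22 without a test moved by more than the spread and 5 changed sign, all 5 in results that were not called. With the line or clone as a replicate block, 26 members were called in the ribo-depleted WT stage comparison (15 without) and 2 in the Zfp281 KO difference of response (1 without); the pairing moved no other count by over 1.5 times. With only the groups compared, the counts were 5 in that WT comparison, 3 for Zfp281 KO at ESC, 12 for it at 32 h, 1 for polyA WT and 1 for Ehmt1 KO at 32 h. Without the line Zfp281_WT, which leaves 1 WT library per stage assumed to vary as the KO clones did, they were 19 for Zfp281 KO at ESC, 24 at 32 h and 5 for the difference of response. The DESeq2 Wald test gave 3 for Zfp281 KO at ESC and 6 at 16 h, and DESeq2 size factors gave 1 for polyA WT. With no filter 1 member was called in Ehmt1 KO at ESC, 1 at 32 h and 1 in the double KO at ESC. With each replicate left out in turn, the ribo-depleted counts ran from 10 to 26 (WT stages), from 0 to 15 (Zfp281 KO at ESC), from 2 to 21 (16 h), from 1 to 5 (32 h) and from 0 to 8 (difference of response). The polyA counts ran from 1 to 2 (WT stages, Ehmt1 KO at ESC and at 32 h), from 1 to 3 (double KO at ESC) and from 2 to 4 (double KO at 32 h). H1f2 in the Zic2 KO at ESC ran from -0.1401 to 0.05769 (also 0.03713), H1f2 in the Ehmt1 KO difference of response from -0.5934 to 0.1858 (also 0.05376), and H1f1 in the Zic2 KO at 32 h from -0.4257 to 0.005758. The cause was not tested. Low polyA counts limit what those libraries can show for all but H1f0 and H1f10, and no scaling moved the median of all genes by over 0.1 (log2).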
